A study of Mus musculus with 82 samples.

Results

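The skin of mice 4 days (d4) after 6 Gy of whole-body X-rays was compared with that of sham mice biopsied on the same day. The comparison uses 8 of the 82 arrays of the series, the 4 that the labels give as 6 Gy and d4 and the 4 given as 0 Gy and d4, taken by label. The series follows male C57BL/6j mice, bought at 8 weeks of age and irradiated a week later, through repeated biopsies of the shaved back after sham treatment or 1, 3, 6 or 20 Gy. Exposures were given under ketamine and xylazine, and sham mice were taken to the same radiation table and back without exposure. Every d4 biopsy is whole skin with the blood it held, and 7 of the 8 mice (all but M018) also have an array of a biopsy taken 2 hours (h2) after treatment, so that mice of both groups had been wounded before. Mice given 6 Gy lived through the 28 days of the study. The question was what a dose that mice survive does to transcription in skin and to its blood-related genes within days.

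Interferons are signals of the innate immune system that cells release on sensing foreign or misplaced nucleic acid, and they switch on a set of interferon-stimulated genes whose products sense or degrade viral RNA. The transcription factors of this pathway bind a short DNA element with repeated GAAA letters, the interferon-stimulated response element. Ionizing radiation also activates p53, which drives genes of cell cycle arrest and death, and it depletes dividing blood precursors. Haemoglobin RNA in a skin biopsy comes mainly from young red cells in its blood.

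The genes that the comparison turns on are mostly of the interferon pathway, and the promoters of 5 of them are shown because they differ in whether they hold that element. Each is 300 bases of the RefSeq sequence of build GRCm38.p6 on the strand of the gene, from 250 bases before the transcription start to 50 after it. Capitals mark the letters GAAANNGAAA or their reverse complement TTTCNNTTTC, and overlapping matches run together. Isg15 lies at chr4:156200769-156201068 on the minus strand, Oas1a at chr5:120907476-120907775 on the minus strand, Phf11a at chr14:59297473-59297772 on the minus strand, Ifit3 at chr19:34583279-34583578 on the plus strand and Oasl2 at chr5:114896684-114896983 on the plus strand.
Isg15: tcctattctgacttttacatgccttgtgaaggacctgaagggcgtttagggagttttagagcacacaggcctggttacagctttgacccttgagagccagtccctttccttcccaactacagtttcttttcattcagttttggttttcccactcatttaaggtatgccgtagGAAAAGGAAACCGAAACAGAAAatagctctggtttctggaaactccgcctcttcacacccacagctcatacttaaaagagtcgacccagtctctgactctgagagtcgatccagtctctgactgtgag
Oas1a: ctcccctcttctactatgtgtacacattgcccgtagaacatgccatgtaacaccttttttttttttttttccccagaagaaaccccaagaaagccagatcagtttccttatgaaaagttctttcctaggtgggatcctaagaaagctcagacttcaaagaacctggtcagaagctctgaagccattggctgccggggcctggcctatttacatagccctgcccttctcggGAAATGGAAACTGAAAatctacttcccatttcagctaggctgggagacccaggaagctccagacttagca
Phf11a: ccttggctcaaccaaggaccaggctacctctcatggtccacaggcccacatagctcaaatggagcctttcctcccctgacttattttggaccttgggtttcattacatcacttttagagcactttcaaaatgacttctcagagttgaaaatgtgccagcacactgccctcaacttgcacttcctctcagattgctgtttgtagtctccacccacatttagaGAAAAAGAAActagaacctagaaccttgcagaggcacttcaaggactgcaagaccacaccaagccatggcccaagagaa
Ifit3: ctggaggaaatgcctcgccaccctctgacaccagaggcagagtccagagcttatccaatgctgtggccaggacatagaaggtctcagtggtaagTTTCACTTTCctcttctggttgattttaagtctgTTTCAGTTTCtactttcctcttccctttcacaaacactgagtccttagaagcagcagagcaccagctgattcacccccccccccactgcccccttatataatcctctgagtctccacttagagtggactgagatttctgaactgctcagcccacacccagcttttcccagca
Oasl2: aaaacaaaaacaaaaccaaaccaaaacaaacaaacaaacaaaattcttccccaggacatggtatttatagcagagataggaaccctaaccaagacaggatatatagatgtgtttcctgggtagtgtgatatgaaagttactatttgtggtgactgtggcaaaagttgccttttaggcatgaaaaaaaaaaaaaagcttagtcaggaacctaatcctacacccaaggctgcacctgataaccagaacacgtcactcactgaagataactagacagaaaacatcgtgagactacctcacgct
Isg15 holds 3 overlapping matches, Oas1a holds 2 that overlap, Phf11a holds 1 and Ifit3 holds 2 apart from each other, while Oasl2 holds none. Of all 32851 promoters of this length, 1131 (3.44%) hold the letters on either strand, as do those of 475 of 12510 genes tested here (3.80%). Among the 22 members of a list of interferon-stimulated genes with a promoter entry, 15 (68.2%) hold them, and Irf7, Irf9, Ifi44, Ifit2, Oasl1, Oasl2 and Xaf1 do not. Of the genes called higher after 6 Gy and described next, 3 of the 8 with an entry hold the letters, and 18 of 120 (15%) do among those called in the deposited values. A match describes the letters of this window and is not a measured binding site.

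Biopsy RNA was labelled with Cy5 and the common reference, Agilent's Universal Mouse Reference RNA, with Cy3 on every array, with no dye swap. A level is the log2 ratio of biopsy over reference on that array, and a log2 fold change is the mean level after 6 Gy minus that in sham. Of the 4 sham arrays, M001, M004 and M005 were read on scanner 1 and M002 on scanner 2, and of the 6 Gy arrays M017 was read on scanner 1 and M016, M018 and M020 on scanner 2, so scanner and dose are unevenly crossed. Values below are given in that order. Between 51.4% and 69.7% of the probes were well above background in Cy5. Basal epidermis (19 of 20 measured genes), macrophages (21 of 21) and fibroblasts (28 of 29) had their markers above background on all 8 arrays.

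Some of these arrays stand apart for the way their background was modelled. The main values come from a background model (normexp) whose fitted background spread was above the offset of 50 on 30 of the 82 arrays, and log2 ratios on those arrays were narrower, with a median SD of 0.711 against 1.02 on the others. Of the 8 arrays compared, M017 and M018 are among the 30, both after 6 Gy. The SD of the log2 ratios of M018 was 0.530 with the model and 1.12 with plain subtraction of the local background, and M018 correlated with the other 7 at 0.671 to 0.744, where the others reached 0.753 to 0.977 with each other. Plain subtraction was therefore added after the data were seen, and values of 3 kinds are given side by side: the background model, plain subtraction, and the authors' deposited log2 values, in which M018 correlated with the others at 0.924 to 0.979. After plain subtraction M018 correlated with the others at 0.799 to 0.912, where those reached 0.769 to 0.978 with each other. The deposited values were also less split by scanner, with a median correlation of 0.955 between arrays of the same scanner and 0.945 between scanners. These medians were 0.901 and 0.793 with the background model and 0.942 and 0.821 after subtraction, so a split by scanner remained there.

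**Figure D1:**
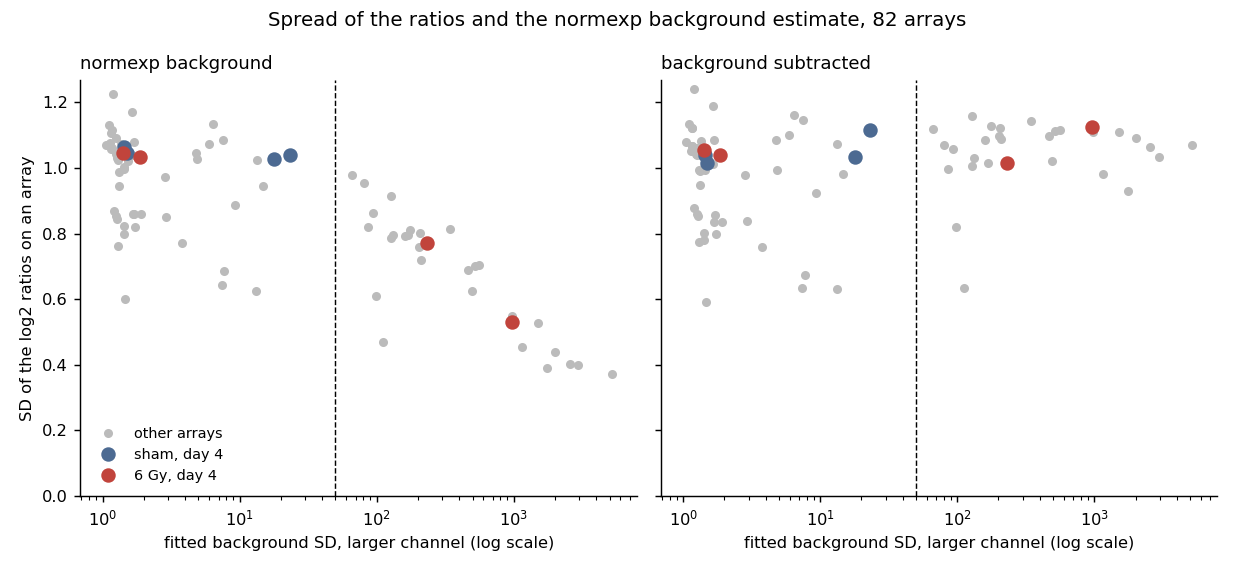
Each point is 1 of the 82 arrays, with the larger of the fitted background SDs of its 2 channels on a logarithmic x axis (intensity units) and the SD of its log2 ratios on the y axis. The dashed line marks the offset of 50, and the 30 arrays to its right, M017 and M018 among them, have a median SD of 0.711 against 1.02 for those to its left.

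Among 30294 probes tested, 11 rose after 6 Gy (0.0363%) and 1 fell (0.0033%), where a call needs a Benjamini-Hochberg adjusted p under 0.05 in the limma model and a change of at least 2-fold. With scanner as a block 7 rose (0.0231%) and 2 fell (0.0066%), and with plain subtraction 20 rose (0.066%) and 1 fell (0.0033%). The deposited values gave many more calls, 191 higher (0.63%) and 19 lower (0.0627%). Counted in genes, by the brightest probe of each of 15731, the calls higher were 11 (0.0699%), 6 (0.0381%), 17 (0.108%) and 157 (0.998%) in the same order. The 11 genes of the main model were all among the 17 after plain subtraction, and 9 of the 11 and 13 of the 17 were called in the deposited values. All 11 calls were lost when M005, M016 or M020 was left out, 1 and 7 remained as counts without M004 and M001, and 25 were higher and 10 lower without M017, while 235 probes were higher and 472 lower without M002, the sham array on scanner 2, and 21 were higher and none lower without M018.

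Of the 36 gene lists examined, that of interferon-stimulated genes was the only one with members called in each of the 3 kinds of values. The 11 genes that rose were Oasl2, Irf7, Isg15, Rtp4, Zbp1, Oas1a, Phf11d, Phf11a, Dhx58, Krt7 and Fbxw9, and the first 9 of them are known targets or parts of the interferon response. Oasl2, an oligoadenylate synthetase-like protein made in response to interferon, had the largest change, 4.86-fold. Its levels were -0.94, -1.27, -1.55 and -0.49 in sham and 1.35, 1.45, 0.03 and 2.05 after 6 Gy. The groups did not overlap, and M018 was the lowest of the 6 Gy arrays. The log2 fold change was 2.28 ± 0.40 (SE, n = 4 and 4, adjusted p = 0.00691 by limma), 2.14 with scanner as a block (adjusted p = 0.0343), 2.60 on scanner 1 alone (with 1 array of 6 Gy) and 1.66 on scanner 2 alone (with 1 of sham), and 2.68 without M018 (adjusted p = 0.000435). In the deposited values Oasl2 was at -0.81, -0.73, -1.14 and -0.40 in sham and at 1.18, 0.91, 0.99 and 1.44 after 6 Gy, a 3.73-fold rise (log2 fold change 1.90 ± 0.32, adjusted p = 0.00032 by limma). M018 lay within the range of the other 6 Gy arrays there.

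Irf7 is a transcription factor that amplifies type I interferon production. Its levels were -1.55, -1.89, -1.91 and -0.85 in sham and 0.01, 1.27, -0.03 and 1.31 after 6 Gy. Every 6 Gy array was above every sham array, and M017 and M018 were the lower pair. The rise was 4.56-fold (log2 2.19 ± 0.41, limma adjusted p = 0.00691, and 0.0454 with scanner as a block), and 2.57-fold in the deposited values (adjusted p = 0.00129). Isg15, a ubiquitin-like protein that is joined to other proteins during the interferon response, was at -1.89, -2.49, -2.37 and -1.65 in sham and at -0.07, 0.15, -0.26 and 0.59 after 6 Gy. Its groups were apart by more than either group's own range. The rise of Isg15 was 4.6-fold (log2 2.20 ± 0.47, limma adjusted p = 0.0319), but the call was lost with scanner as a block (1.98, adjusted p = 0.137).

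Oas1a, which makes the messenger that activates RNase L, was at -1.34, -1.38, -1.72 and -0.74 in sham and at 0.55, 0.76, -0.11 and 0.84 after 6 Gy. These groups did not overlap, and the 3.50-fold rise (limma adjusted p = 0.00691) kept its call with scanner as a block (adjusted p = 0.0343). Dhx58, an RNA helicase that tunes sensing of viral RNA, rose 2.52-fold (log2 1.34 ± 0.26, limma adjusted p = 0.00855) and had the smallest adjusted p of the 9 in the deposited values (log2 1.31, adjusted p = 8.47e-05). Zbp1, a sensor of left-handed nucleic acid, rose 4.54-fold (limma adjusted p = 0.0145), and Rtp4, a receptor transporter induced by interferon, rose 4.52-fold (limma adjusted p = 0.0319). The Zbp1 and Rtp4 calls were lost with scanner as a block (adjusted p = 0.0769 and 0.181), and both were called in the deposited values at log2 fold changes of 1.44 and 1.75. Phf11d and Phf11a, PHD finger proteins that are close relatives and may share signal on the array, rose 3.47-fold and 3.56-fold, and with scanner as a block Phf11d was still called (adjusted p = 0.0397) while Phf11a was not (adjusted p = 0.0652). Without M018 these 9 genes had log2 fold changes from 1.58 for Dhx58 to 2.68 for Oasl2 and each stayed called.

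Plain subtraction of the background added further interferon-stimulated genes. Ifit3, which stabilizes a complex that binds viral RNA, had levels in the deposited values of 0.52, 0.22, 0.15 and 0.60 in sham and 2.45, 2.47, 2.18 and 2.47 after 6 Gy. The 4 irradiated mice lay close together and far above sham. Its log2 fold change was 1.76 with the background model (limma adjusted p = 0.0827), 2.31 without M018 (adjusted p = 0.00529), 2.03 with plain subtraction (adjusted p = 0.021) and 2.02 ± 0.33 in the deposited values (adjusted p = 0.000239). Ifi27l2a, a small interferon-induced protein, had the largest change of the genes called after subtraction (log2 3.28, adjusted p = 0.0264, with the sham array M002 dropped because its spot was an outlier), and 2.27 in the deposited values (adjusted p = 0.00478). Lgals3bp, a secreted galectin-binding glycoprotein, and Oasl1, a relative of Oasl2, were called after subtraction at log2 fold changes of 1.98 and 1.57 (both limma adjusted p = 0.0253), though not with the background model (both 0.0568). A probe without a gene name in the table used, A_51_P514085, rose by 1.04 with scanner as a block (limma adjusted p = 0.0397) and by 1.09 in the deposited values.

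**Figure D2:**
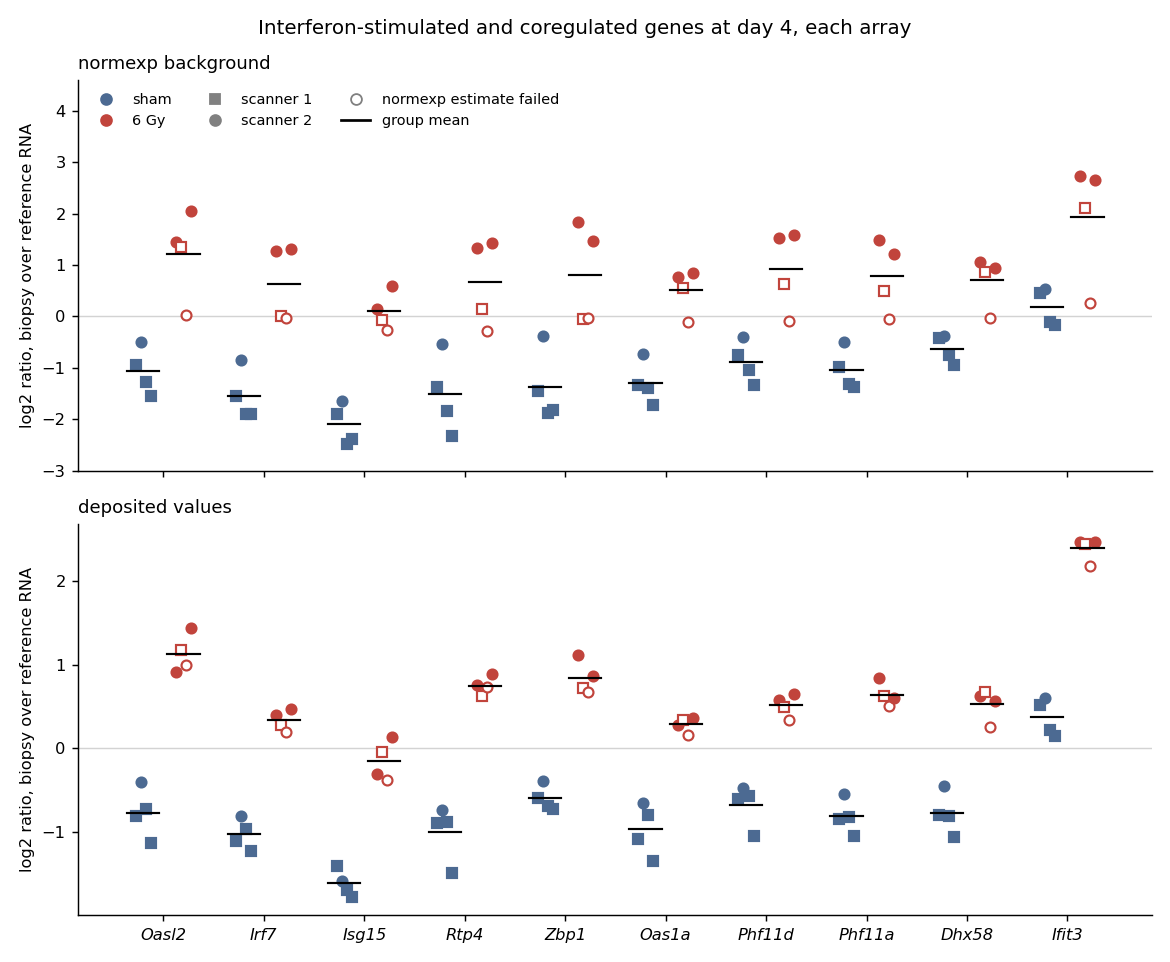
Levels (log2 ratio of biopsy over reference) of 10 interferon-related genes on each of the 4 sham and 4 6 Gy arrays at d4, with the background model above and the deposited values below. Squares are scanner 1, circles scanner 2, open symbols M017 and M018, and bars group means. The 6 Gy arrays lie above the sham arrays for Oasl2, Irf7, Isg15 and Oas1a in both panels, with M018 the lowest of the 6 Gy arrays for Oasl2 above (0.03) and not below (0.99).

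The list of interferon-stimulated genes, taken as a whole, had 26 of its 28 members tested. No tested probe carried the symbol of the others, Mx1 and Mx2, which are antiviral GTPases, in the table used, and whether a probe without a gene name there measures them was not settled. All 26 log2 fold changes were above 0 with each of the 3 kinds of values, from 0.24 to 2.28 with the background model, and the list's median was 0.97 where the median over all genes tested was -0.04. Plain subtraction gave a median of 0.96 and the deposited values 1.11, each beside 0.00 over all genes. Of the 26 members, 5 were called with the background model, 3 with scanner as a block, 7 after subtraction and 15 in the deposited values, beside 0.0699%, 0.0381%, 0.108% and 0.998% of all genes. The 15 included Ifit1 (log2 1.57, limma adjusted p = 0.00103), Rsad2, which makes a chain-terminating nucleotide (1.32, adjusted p = 0.00677), Oas2 (1.17, adjusted p = 0.000343) and Bst2, which tethers budding virus (1.2, adjusted p = 0.00532). Irf9 and Stat2, which carry the interferon signal to the nucleus together, had smaller values, Irf9 at 0.40 and Stat2 at 0.63 with the background model and 0.55 and 0.65 in the deposited values, and neither was called. Cxcl10, a chemokine more typical of interferon gamma, was not called (log2 0.24, and 0.82 with an adjusted p of 0.17 in the deposited values).

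For 16 of the 26 the 6 Gy arrays all lay above the sham arrays with the background model, where 468 of 15583 genes with a value on all 8 arrays (3%) did so and 536 (3.44%) were as clearly lower. After subtraction it was 17 of the 26 beside 2.41% of all genes, and in the deposited values 25 of the 26 beside 8.4% higher and 6.4% lower. Across the members of the list the deposited values had medians of -0.85, -0.76, -1.04 and -0.56 on the sham arrays and 0.48, 0.45, 0.43 and 0.54 on the 6 Gy arrays. With the background model the 6 Gy medians were 0.37, 0.73, -0.03 and 0.82, so M018 was again the lowest but still above the highest sham median, -0.52. These are whole biopsies, in which fewer cells of a type and less RNA per cell cannot be told apart, and likewise for more. Markers of macrophages, which can respond strongly to interferon, had a median log2 fold change of 0.04 with the background model (11 of 21 above 0), 0.55 after subtraction and 0.83 in the deposited values, and their part in the interferon result was not tested.

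The other genes that rose in the main model are not part of the interferon response. Krt7, a keratin of simple and glandular epithelium, was at -1.59, -1.89, -1.78 and -1.66 in sham and at -0.15, -0.51, -0.14 and -0.88 after 6 Gy. The groups were well apart, and the rise of 2.48-fold was called with the background model (limma adjusted p = 0.0436). It was not called with scanner as a block (adjusted p = 0.126), without M018 (0.111) or in the deposited values (log2 0.31, 0.331), where the groups overlapped. A fainter Krt7 probe had a log2 fold change of 0.78 (limma adjusted p = 0.163). Fbxw9, an F-box protein that recruits substrates to a ubiquitin ligase, was at -0.71, -0.85, -0.82 and -0.65 in sham and at 0.21, 0.82, 0.17 and 0.23 after 6 Gy. No sham array reached the 6 Gy arrays. Fbxw9 rose 2.16-fold (limma adjusted p = 0.00691, and 0.0343 with scanner as a block), but 1.46-fold, short of the fold required, in the deposited values (adjusted p = 0.0167).

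The 1 probe that fell was of Hbb-bt, an adult beta-globin. That probe fell by 2.76 ± 0.55 on the log2 scale (limma adjusted p = 0.0319). Its call was lost with scanner as a block (-2.85, adjusted p = 0.0731), after subtraction (-1.69, adjusted p = 0.539) and in the deposited values (-0.88, adjusted p = 0.0796). The other 3 Hbb-bt probes had log2 fold changes of -4.68 (adjusted p = 0.0568), -3.94 (0.0568) and -3.87 (0.126). With scanner as a block the probe at -3.94 was called (-4.52, limma adjusted p = 0.0343) and that at -3.87 was not (-4.37, adjusted p = 0.243). The brightest of the 4 was at 6.05, 6.17, 5.67 and 7.17 in sham and at 0.62, 2.10, 1.25 and 2.37 after 6 Gy. All 6 Gy arrays were lower by several log2 units, and the change was -5.17 with scanner as a block (limma adjusted p = 0.0454). After subtraction M018 was at 5.15, near sham, and the change was -3.35 (adjusted p = 0.25), or -4.13 without M018 (adjusted p = 0.0587). In the deposited values the brightest probe was at 5.44, 5.70, 5.23 and 6.33 in sham and at 3.46, 4.26, 4.17 and 4.81 after 6 Gy, a difference of -1.50 (adjusted p = 0.0555), and 1 of the 4 probes was called there (-1.50, adjusted p = 0.025). The groups of this brightest probe did not overlap in any of the 3 kinds of values, whereas after subtraction those of the called probe did, with M018 at 3.63 and sham from 3.40 to 4.35. Beta-globin genes are close copies whose transcripts can bind each other's probes, so the loss cannot be assigned to 1 of them.

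Alpha-globin and the rest of the red cell genes gave a less clear picture. Hba-a1, an alpha-globin, had a log2 fold change of -2.63 with the sham array M002 dropped (limma adjusted p = 0.119) and of -0.76 in the deposited values (adjusted p = 0.192), and was not called. In the deposited values its groups did not overlap, with sham from 3.52 to 4.21 and 6 Gy from 2.54 to 3.19. Alas2, the first enzyme of haem synthesis in red cells, was at 1.16, 0.99, 0.69 and 2.42 in sham and at 0.06, 0.11, 0.02 and -0.02 after 6 Gy with the background model. These groups did not overlap, but the difference of -1.27 was not called, and it was -0.29 in the deposited values, where they did overlap. Over 17 tested erythroid genes of 28 listed, the median log2 fold change was -0.20 with the background model, -0.19 after subtraction and 0.06 in the deposited values, and 5, 4 and 9 of the 17 were above 0. With each gene taken by 1 probe, none of the 17 was called with the background model, and 1 was lower with scanner as a block, beside 0.00636% of all genes. The groups did not overlap for 2 of the 17, lower after 6 Gy, with the background model (3.44% of all genes), and for 5 lower and 1 higher in the deposited values (6.4% and 8.4% of all genes). How much blood each biopsy held was not measured.

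Depp1, a regulator of autophagy that FOXO factors induce, had, after Hbb-bt, the largest fall among genes whose groups did not overlap and whose direction was the same on each scanner. After subtraction it was at 3.24, 3.86, 3.55 and 4.35 in sham and at 1.70, 1.77, 0.42 and 1.96 after 6 Gy. Each 6 Gy array was below each sham array, and Depp1 fell by 2.29 ± 0.47 on the log2 scale (limma adjusted p = 0.021). The call rested on M018 (-1.94 without it, adjusted p = 0.152), the background model gave -2.67 without a call (adjusted p = 0.109), and in the deposited values the groups overlapped (-0.57, adjusted p = 0.364).

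**Figure D3:**
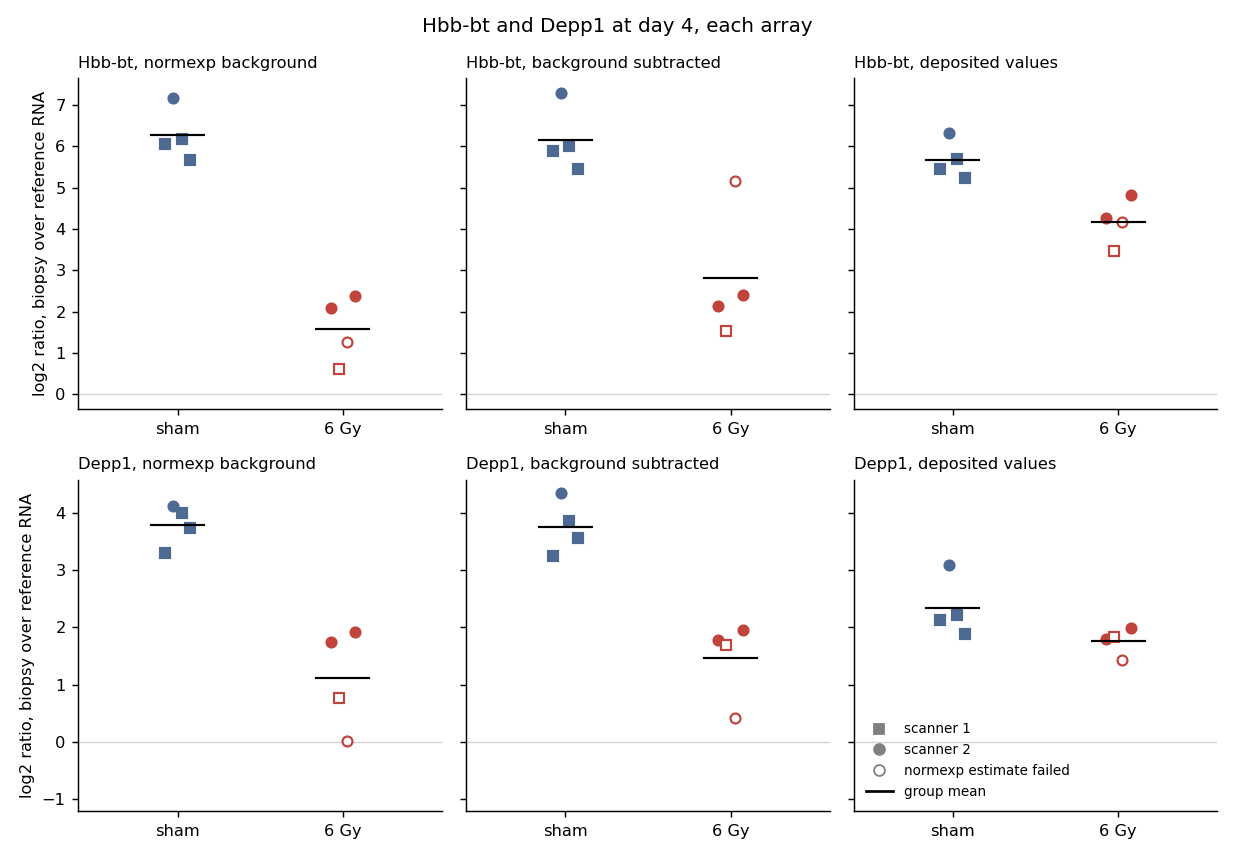
Levels (log2 ratio of biopsy over reference) of the brightest Hbb-bt probe and of Depp1 on each sham and 6 Gy array at d4, with the background model, plain subtraction and the deposited values. Squares are scanner 1, circles scanner 2, open symbols M017 and M018, and bars group means. For Hbb-bt the groups are apart in all 3, with M018 at 1.25, 5.15 and 4.17 in turn, and for Depp1 they overlap in the deposited values.

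Few targets of p53, the transcription factor that DNA damage activates, were called at d4. Over 30 targets the median log2 fold change was 0.44 with the background model, 0.36 after subtraction and 0.21 in the deposited values, with 21, 24 and 23 of 30 above 0, and 0, 2 and 0 were called, the 2 beside 0.108% of all genes. The groups did not overlap for 10, 6 and 8 of the 30, higher after 6 Gy, beside 3%, 2.41% and 8.4% of all genes. They were as clearly lower for 0, 0 and 1, beside 3.44% of all genes, 241 of 15583 genes and 6.4% in that order. Gdf15, a stress-induced growth factor, was with the background model at -1.87, -2.42, -2.00 and -1.54 in sham and at -1.09, -0.91, -0.42 and -0.29 after 6 Gy. Its groups did not overlap with any of the 3 kinds of values. The change was not called with the background model (log2 1.28, limma adjusted p = 0.0702), but Gdf15 rose 2.10-fold after subtraction (log2 1.07 ± 0.22, limma adjusted p = 0.02), with 1.6-fold in the deposited values (adjusted p = 0.00109). Dcxr, a xylulose reductase of the list, was also called after subtraction (log2 1.2, limma adjusted p = 0.038), but not without M018 (1.13, adjusted p = 0.146). Cdkn1a, the p21 inhibitor of the cell cycle, had 0.83 with the background model (limma adjusted p = 0.3) and 0.36 in the deposited values, and Bax, a trigger of cell death, 0.93 (adjusted p = 0.0761) and 0.25. Polk, a DNA polymerase that copies past lesions, was at 0.53 in the deposited values (adjusted p = 0.000876), a change below 2-fold, and Mdm2, the p53 antagonist, was at 0.36 with the background model and -0.02 there.

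Genes of dividing cells were not called in any kind of values. The median over 30 of them was 0.33 with the background model, -0.01 after subtraction and -0.22 in the deposited values. In that order 25, 14 and 4 of the 30 were above 0, so the direction of the list turns with the kind of values. Mki67, the proliferation antigen, went against most of the list with the background model. It had log2 fold changes of -0.52, -1.08 and -0.60 in that order, with a limma adjusted p of 0.144 in the last. Birc5, which is needed to complete cell division, had -0.64 in the deposited values (limma adjusted p = 0.0484), short of 2-fold.

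The deposited values also gave calls in groups for which the scanner values gave few or none. Of the 157 genes higher in the deposited values, 65 had log2 fold changes below 0 with the background model and 19 after subtraction. Over all 15731 genes tested, 6983 and 7889 were above 0 in that order. The 6 Gy and sham arrays were apart in the same direction for 20 and 37 of the 157, beside 3% and 2.41% of all genes. Across all probes the log2 fold changes of the main model and of the deposited values correlated at 0.103, and those after subtraction and deposited at 0.351. The groups that follow are therefore results of the deposited values, for which the steps of normalization are not given in the sources used here.

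Macrophage markers were higher in the deposited values for 6 of 21 measured members, beside 0.998% of all genes, and all 21 were above 0. Fcgr1, the high-affinity Fc receptor, had log2 fold changes of 1.78 with the background model (limma adjusted p = 0.119), 1.80 after subtraction and 1.87 deposited (adjusted p = 0.00189). Fcgr1 itself responds to interferon. Mrc1, the mannose receptor, and C1qa, a chain of complement C1q, were called in the deposited values at 1.36 and 1.31, with 0.20 and -0.24 in the background model. Plac8, a cysteine-rich protein of white cells, had the largest change of any named gene in the deposited values, 5.23-fold (log2 2.39 ± 0.48, limma adjusted p = 0.00158). It was at -0.51, -0.69, -0.71 and 0.08 in sham and at 1.46, 2.15, 1.91 and 2.20 after 6 Gy in those values. The groups did not overlap, and the background model gave 2.47 (adjusted p = 0.0761) and, without M018, 3.01 (adjusted p = 0.0229).

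Ccl12, a chemokine that is in none of the lists, was in the deposited values at 1.16, 1.21, 0.67 and 1.03 in sham and at 3.08, 2.85, 2.58 and 3.68 after 6 Gy. The groups were far apart there, a change of 2.03 (limma adjusted p = 0.000614), whereas after subtraction it was 1.66 and not called (adjusted p = 0.521). Ms4a6b, a membrane protein of white cells, had 2.24 in the deposited values (adjusted p = 0.000505) but 0.08 with the background model and 0.93 after subtraction. Over 38 genes of senescence and cytokines, 4 were higher in the deposited values, beside 0.998% of all genes, and 1 was lower, beside 0.0826%. The 4 were the chemokines Ccl7 (log2 1.86, limma adjusted p = 0.00124), Ccl8 (1.43, adjusted p = 0.0122) and Ccl19 (1.65, adjusted p = 0.00704) and Mmp3, a protease of the matrix (1.39, adjusted p = 0.0172). The lower gene was Cxcl12, a chemokine that keeps blood stem cells in their niche, at -1.0 (adjusted p = 0.00296). After subtraction 1 gene of this list was called, beside 0.108% of all genes, Gdf15, which is also among the p53 targets. The lists of T and NK cells, B cells, neutrophils and dendritic cells had no member called in any kind of values, with medians of 0.01, 0.01, 0.20 and -0.01 in the deposited values. These medians were -0.06, 0.07, 0.04 and -0.54 with the background model, and -0.05, -0.02, 0.02 and -0.08 after subtraction. In the dendritic list 6 of 22 genes were lower without overlap and 1 higher with the background model, beside 3.44% and 3% of all genes. After subtraction 1 was lower, beside 241 of 15583 genes. In the deposited values 2 were lower and 1 higher, beside 6.4% and 8.4%.

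Lipid genes of the sebaceous gland were called higher for 6 of 14 measured members in the deposited values, beside 0.998% of all genes, and for none in the scanner values. Fa2h, which hydroxylates fatty acids, was at 4.48, 4.46, 4.73 and 4.78 in sham and at 6.22, 6.53, 6.09 and 6.74 after 6 Gy. The groups were apart by over 1 log2 unit in the deposited values (1.78, limma adjusted p = 0.000724). With plain subtraction Fa2h stood between 4.15 and 5.02 in sham and between 4.67 and 4.94 after 6 Gy, and the change was 0.07 (adjusted p = 0.987), or 0.03 without M018. Elovl4, an elongase of very long fatty acids, likewise had 1.61 in the deposited values (adjusted p = 0.000949), 0.34 after subtraction and -1.22 with the background model. The list's median was -0.23 with the background model, 0.29 after subtraction and 0.88 deposited, so that its sign turns with the normalization.

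Fibroblast and collagen genes had the same dependence. Dcn and Lum, small proteoglycans that organize collagen fibrils, had 1.72 (limma adjusted p = 0.00129) and 1.70 (0.0207) in the deposited values and 0.23 and -0.24 with the background model. Of 29 fibroblast and matrix genes, 4 were called higher in the deposited values, beside 0.998% of all genes, and none otherwise. The GP6 pathway, through which platelets sense collagen, was followed by the study after irradiation. Among the 16 tested genes taken for it, which are collagens, the laminin Lamb1 and the calmodulin-like Calm4, 1 was called in the deposited values, Col2a1 (1.37, limma adjusted p = 0.00418), a collagen best known from cartilage. Col1a1, the main collagen of skin, had 1.00 in the deposited values (adjusted p = 0.0411) with a fold just under the 2-fold required, and was at -0.62 with the background model and -0.53 after subtraction. The medians of this list were -0.26, -0.04 and 0.51 with the background model, subtraction and deposited values, and 3, 8 and 13 of the 16 were above 0. The intrinsic prothrombin activation list had medians of -0.67, -0.01 and 0.78 over 8 genes, with 0, 4 and 7 above 0. Again Col2a1 was the 1 called in the deposited values, and each count of calls stands beside 0.998% of all genes. There the groups did not overlap for 8 of the 16 and 5 of the 8, higher after 6 Gy, beside 8.4% of all genes. With the other 2 kinds of values it was 0 in both lists.

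In the deposited values 2 of 10 tested blood genes named by the study and 1 of 31 tested genes of clotting were called higher. Each count stands beside 0.998% of all genes. The groups did not overlap for 11 of the 31 clotting genes, higher after 6 Gy, and for 0 lower, beside 8.4% and 6.4% of all genes. With the background model it was 3 higher and 1 lower, beside 3% and 3.44%. F13a1, the fibrin-crosslinking factor XIII subunit that macrophages also make, was at 3.81, 4.07, 3.45 and 4.41 in sham and at 5.36, 5.30, 6.11 and 6.66 after 6 Gy in the deposited values. The groups were apart, with a change of 1.92 (limma adjusted p = 0.00124), but the background model gave -0.45 and subtraction 0.64, so the sign turns. Pf4, a chemokine of platelet granules, had 1.39 (adjusted p = 0.0039) in the deposited values and 0.91 with the background model, and it was the 1 member of 19 platelet genes called. The IL-6 genes named by the study also had 1 call of 18, each count beside 0.998% of all genes. It was Hspb3, a muscle heat shock protein, at 1.43 (adjusted p = 0.0439) in the deposited values and -1.21 with the background model.

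Calls lower in the deposited values were 13 genes (0.0826%), of which 1 was above 0 with the background model and 3 after subtraction, beside 6983 and 7889 of all 15731 genes. Ear1 and Ear10, ribonucleases of eosinophils that are close copies of each other, had -1.40 (limma adjusted p = 0.0405) and -1.29 (0.00956), with -1.08 and -0.95 in the background model. Nfil3, a repressor that acts in the circadian clock and in lymphoid cells, was at -0.08, 0.07, -0.15 and -0.27 in sham and at -1.13, -1.32, -1.32 and -1.10 after 6 Gy. Its groups were tight and far apart (-1.11 ± 0.19, adjusted p = 0.000326), while the background model gave -0.18. Chac1, an enzyme that degrades glutathione, had -1.41 in the deposited values (adjusted p = 0.025) and 0.81 with the background model, with the sham array M002 dropped, again with the sign turned. Genes of the growing hair follicle had a median of -0.90 in the deposited values (1 of 28 above 0) and -0.11 with the background model, and none was called, with Krt71 at -1.80 (adjusted p = 0.304).

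**Figure D4:**
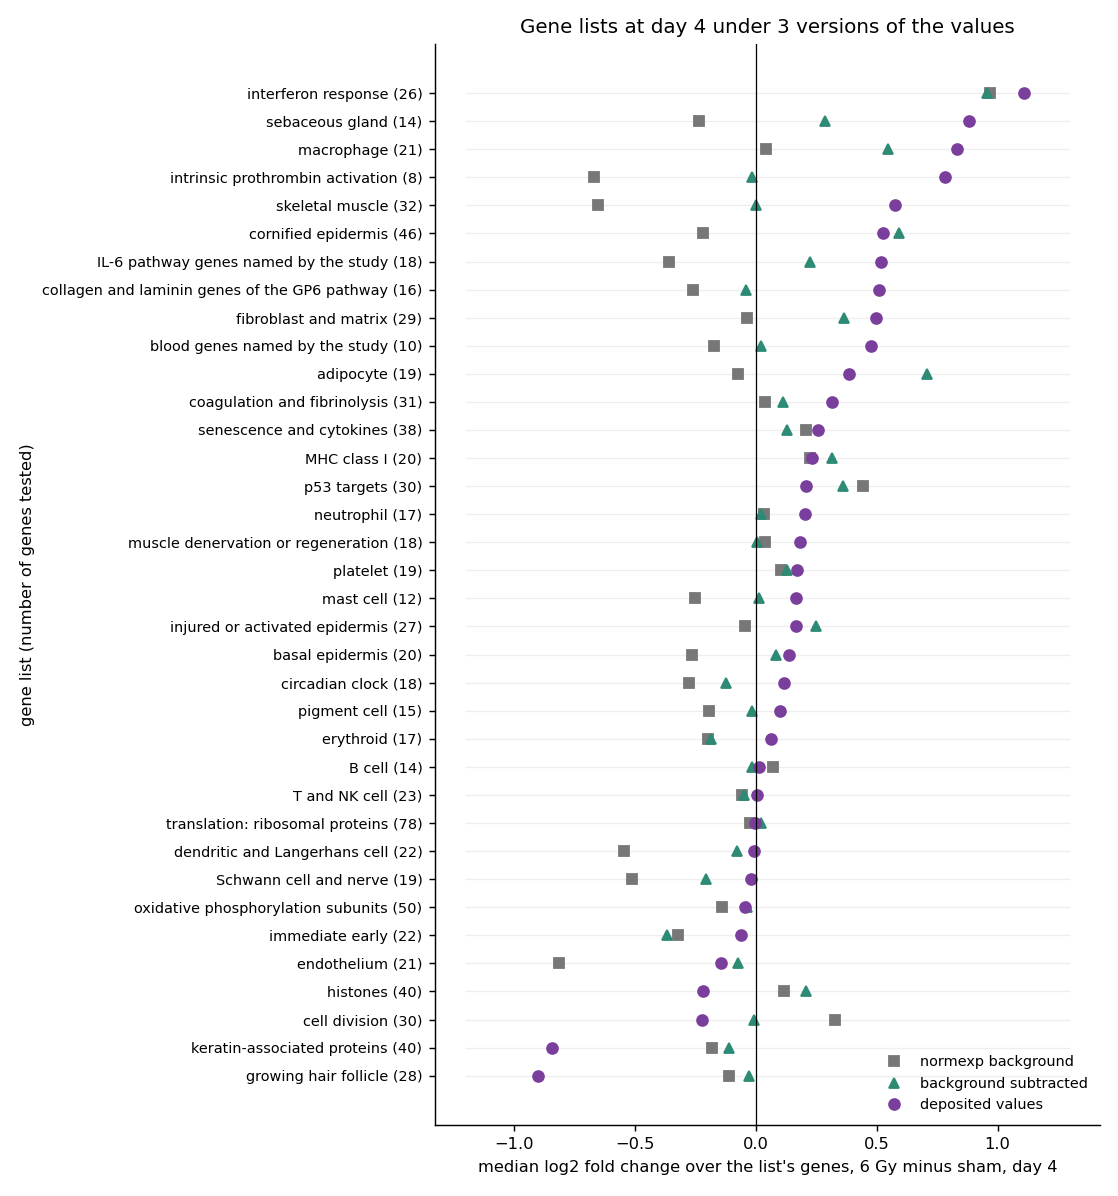
Median log2 fold change, 6 Gy minus sham at d4, of each of 36 gene lists (rows) with the background model, plain subtraction and the deposited values. The interferon list is at 0.97, 0.96 and 1.11, while the sebaceous gland list moves from -0.23 to 0.88 and the growing hair follicle list from -0.11 to -0.90.

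The 6 Gy effect at d4 was compared with that at h2 by the difference between them, in which each time has its own sham arrays from the same 4 mice. No probe was called in this difference in any kind of values by limma, with 29 probes higher and 25 lower at an unadjusted p under 0.05 and a 2-fold change in the main model, and 26 and 23 in the deposited values. At h2 the median log2 fold change of the interferon list was 0.51 with the background model, 0.56 after subtraction and 0.29 in the deposited values, against 0.97, 0.96 and 1.11 at d4, and 22, 23 and 25 of the 26 members were above 0 at h2. Over all probes 94 were called higher (0.31%) and 15 lower (0.0495%) at h2 in the deposited values by limma, and none with the other 2, where 61 and 208 with the background model and 360 and 119 after subtraction had an unadjusted p under 0.05 and a 2-fold change. In the deposited values the 6 Gy arrays at h2 had list medians of -0.72, -0.34, -0.54 and -0.27, with sham at h2 between -1.21 and -0.55. These ranges overlap, unlike those at d4. They did not overlap at h2 with the background model, from -0.30 to -0.03 after 6 Gy and from -1.01 to -0.33 in sham, or after subtraction, from -0.49 to -0.20 and from -1.47 to -0.51, so the separation at h2 turns with the kind of values. Oasl2 had a difference between the times of 1.55 ± 0.45 (adjusted p = 0.725 by limma) in the deposited values and 1.61 ± 0.56 in the background model. Scanner was balanced in this contrast, but 2 of the 4 arrays in each group at h2 also had a failed background model.

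Against the lower doses at d4, 6 Gy stood out for several of these genes. The contrast of 6 Gy with the mean of 1 Gy (4 arrays) and 3 Gy (5 arrays) uses no sham array and is nearly balanced over scanners, though it shares the 6 Gy arrays with the comparison above. No probe was called with the background model, where all 5 arrays of 3 Gy and 2 of 4 of 1 Gy had failed background fits, with 37 probes higher and 3 lower at an unadjusted p under 0.05 and 2-fold by limma. Without M018, 11 probes were higher. After subtraction 2 probes were higher, 1 of them of Oasl2 (log2 1.84 ± 0.36, adjusted p = 0.0429), and 1 was lower, Depp1 (-2.32 ± 0.40, adjusted p = 0.00718). In the deposited values 25 genes were higher (0.159%) and 4 lower, and 9 of the 26 interferon genes were among the 25.

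Ifit3 had the largest of these interferon differences in the deposited values, with means of 0.37 in sham, 0.59 after 1 Gy, 0.94 after 3 Gy and 2.39 after 6 Gy. Its 6 Gy mean was above the mean of the lower doses by 1.63 ± 0.28 (limma adjusted p = 0.000995). Oasl2 had means of -0.77, -0.65, -0.24 and 1.13 in the same order and a contrast of 1.58 ± 0.27 (adjusted p = 0.000995). Irf7 and Isg15 were called there as well, with contrasts of 1.11 and 1.26 (both adjusted p = 0.00647). Plac8 had means of -0.45, -0.23, 0.34 and 1.93, with a contrast of 1.87 ± 0.41 (adjusted p = 0.0109). For Ifit3, Oasl2 and Plac8 the means of the deposited values rose in the order of dose, the step from 3 to 6 Gy being the largest, but 3 Gy against sham was not called for any of the 3 (adjusted p from 0.263 to 0.281).

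Over the interferon list the 6 Gy mean was the highest of the 4 groups at d4 for 25 of 26 genes with the background model and for all 26 otherwise. Against the same sham arrays the median log2 fold change was 0.09 for 1 Gy, 0.36 for 3 Gy and 1.11 for 6 Gy in the deposited values, and 0.29, 0.44 and 0.97 with the background model. On single arrays of the deposited values the list median was between -0.76 and -0.37 after 1 Gy, between -0.65 and 0.25 after 3 Gy and between 0.43 and 0.54 after 6 Gy. The 1 Gy and 3 Gy ranges overlap with each other and with sham, and the 6 Gy range lies above all of them there. After subtraction 6 Gy was between -0.04 (M018) and 0.83 and 3 Gy between -0.68 and 0.11, and with the background model 6 Gy was between -0.03 (M018) and 0.82 and 3 Gy between -0.62 and 0.00, so that in both M018 fell within the range of 3 Gy. With the background model 1 Gy reached -0.02, and 6 Gy at h2 -0.03, so M018 fell within those ranges as well.

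**Figure D5:**
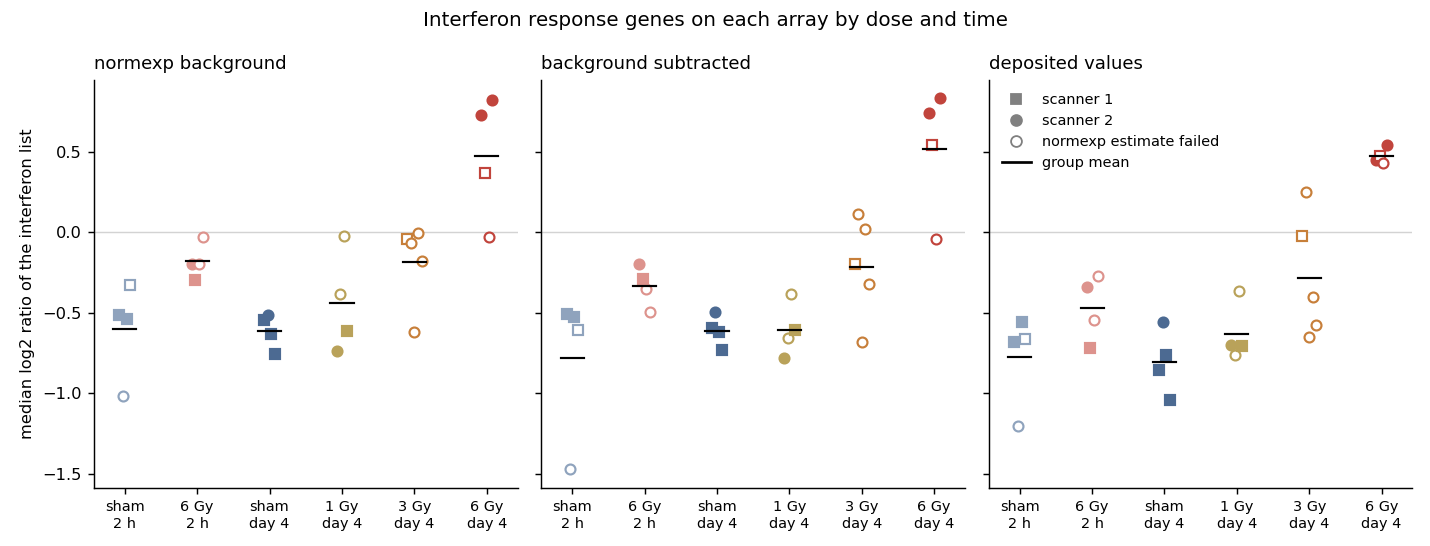
Median log2 ratio over the 26 interferon-stimulated genes on each array of sham and 6 Gy at h2 and of sham, 1, 3 and 6 Gy at d4, for the 3 kinds of values. In the deposited values the 6 Gy arrays at d4 lie between 0.43 and 0.54, above the arrays of every other group shown, and with the background model (-0.03) and after subtraction (-0.04) M018 falls within the range of 3 Gy, with the background model also within those of 1 Gy and of 6 Gy at h2.

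The brightest probe of Hbb-bt had deposited means of 5.68 in sham, 6.89 after 1 Gy, 4.75 after 3 Gy and 4.18 after 6 Gy at d4, and of 6.19 in sham and 7.18 after 6 Gy at h2. The 6 Gy mean at d4 was thus the lowest of these and fell by 1.64 ± 0.42 against 1 and 3 Gy (limma adjusted p = 0.0387), while at h2 the 6 Gy mean was above that of sham. The d4 means after subtraction had the same order, 6.16, 6.74, 3.63 and 2.81, and with the background model, which failed on all 5 arrays of 3 Gy, they were 6.26, 4.77, 1.58 and 1.58. Depp1 had deposited means of 2.33 in sham, 4.00 after 1 Gy, 2.95 after 3 Gy and 1.76 after 6 Gy. Its fall of 1.71 ± 0.31 against the lower doses (adjusted p = 0.00156) arose with levels after 1 Gy that were above sham. After subtraction the means were 3.75, 4.08, 3.50 and 1.46, with 1 Gy again above sham, and with the background model 3.78, 2.64, 1.43 and 1.11, with 1 Gy below it.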

How the data were processed

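The comparison, its members and the gene lists were chosen with earlier results of these data known, and the arrays of each group were then taken by label. The authors deposited scanner output with the median intensity of each spot and its local background in both channels, the scanner software's log10 ratio of Cy5 over Cy3, and a table of log2 values normalized by steps not given in the sources used here. That table's columns have medians from -0.0147 to 0.015, and their scale and direction (Cy5 over Cy3) were read from a comparison with the scanner ratios of the same arrays. The labels and paper name Feature Extraction 11.0.1.1, whereas the file headers give 11.0.1.1 for scanner 1 (G2600D) and 10.10.1.1 for scanner 2 (G2505C).

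In R 4.3.3 with limma 3.58.1, normexp with an offset of 50 was applied to the median signals, followed by loess within each array. Control spots (1639 of 45018) and outlier spots were left out, and spots of a probe were averaged to give 41174 probes. A probe was tested where the flag for Cy5 signal well above background was set on 50% or more of any 1 group's arrays, which left 30294, in a model with a mean for each group over all 82 arrays, which share 1 estimate of spread. Calls needed both a p under 0.05 after Benjamini-Hochberg adjustment and a 2-fold change or more. Scanner as a fixed block, the deposited values, plain subtraction of background (added after the data were seen), each array left out and the settings in the closing section were the alternatives. Symbols came through accessions from a RefSeq table of GRCm38.p6 (27553 probes, 66.9%), and the brightest probe stood for each gene. The named genes were those past both thresholds with or without scanner, the largest changes of groups that did not overlap or of the deposited values and further contrasts, genes the study names, and leading or called members of each list. The fit was tested on simulated data. Replicates are separate mice, 4 a group, and the number of arrays limits the precision. One gene is not reported here.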

Additional observations from a re-analysis of the deposited data

Results flagged for a closer look

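Of 67 groups of arrays examined, 1 had an array that lay far from the others by Dixon's criterion, where chance marks about 1 in 20. This was Fbxw9 after 6 Gy at d4 with the background model, where M016 was at 0.82 and the other 3 arrays were between 0.17 and 0.23. Its gap to the nearest of them was 0.90 of the group's range. Without M016 the log2 fold change of Fbxw9 was 0.96 and its call was lost (limma adjusted p = 0.0976).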

How the results depend on the processing

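No paired analysis was possible because irradiated and sham mice are different animals at d4. Mouse as a random block over the times gave 12 higher and 1 lower at d4, and 0 and 0 in the difference between d4 and h2. On scanner 1 alone 6 Gy, and on scanner 2 alone sham, is 1 array at d4, taken to vary like the other groups. Counts of probes higher and lower after 6 Gy than in sham at d4, 11 and 1 in the main setting, became 7 and 2 with scanner as a block, 142 and 812 on scanner 1 alone, 2 higher on scanner 2 alone, 191 and 19 in the deposited values (164 and 20 with scanner as a block), 0 and 0 with array medians in place of loess or with only the 8 arrays fitted, 0 lower with the scanner software's ratio, 25 and 2 with no background correction, 3 lower among probes well above background on all 8 arrays, 7 higher with slide as a random block and 2 lower with scan day as a block. Settings added after the data were seen gave 20 higher with the background subtracted (7 and 3 with scanner as well, 28 higher without M018), 43 and 2 with only arrays whose background model was usable, and 0 lower without M018 with scanner as a block. Leaving out 1 array at a time gave between 0 and 235 higher and between 0 and 472 lower.

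Probes higher in the difference between d4 and h2 in the effect of 6 Gy were 0 in the main setting, as were those lower, but 172 were higher and 448 lower on scanner 1 alone, 207 and 6 on scanner 2 alone, and 1 lower with the scanner software's ratio or with scan day as a block. The contrast of 6 Gy with 1 and 3 Gy, also without calls, had 20 and 51 on scanner 1 alone, 31 and 6 in the deposited values with or without scanner as a block, 1 higher with array medians or among probes above background on all 8 arrays, 3 and 1 with no background correction, 2 and 1 with the background subtracted (3 and 1 with scanner as well, 13 higher without M018), 17 higher without M018 with scanner as a block, and between 0 and 11 higher with 1 array left out. The causes were not tested.

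Chac1 turned from 0.81 to -1.41 in the deposited values and -1.48 there with scanner as a block, and F13a1 from -0.45 to 1.92 and 1.86. No gene called in the main setting turned its direction in any of the 28 alternatives, and Oasl2 lost its call in 6 of them, Oas1a in 7, Irf7 in 8, Dhx58 and Phf11d in 9, Fbxw9 and Zbp1 in 11, Phf11a in 12, Isg15 and Rtp4 in 13 and Krt7 in 19. The median of the interferon list stayed between 0.86 and 1.59.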

Other observations

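No endothelial gene was called with the background model. Over 21 of them the median log2 fold change was -0.81, against -0.07 after subtraction and -0.14 in the deposited values. With the background model it lay between -1.02 and -0.36 with 1 array left out and was -0.04 with only arrays whose background model was usable. Kdr, the main receptor for vascular endothelial growth factor, and Cdh5, the cadherin of endothelial junctions, were among the 10 largest falls of genes whose groups did not overlap. Kdr had log2 fold changes of -1.55 (limma adjusted p = 0.239), -0.58 and -0.32 in the 3 kinds of values, and Cdh5 had -1.71 (adjusted p = 0.241), -0.60 and -0.29. Lyve1, a hyaluronan receptor of lymphatic vessels and of some macrophages, was the 1 member called in the deposited values, where it was higher, beside 0.998% of all genes.

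Genes of the cornified epidermis had medians of -0.22, 0.59 and 0.53 over 46 members with the background model, subtraction and deposited values. Hrnr, a protein of the cornified envelope, was the 1 called, beside 0.998% of all genes, at 1.68 in the deposited values (limma adjusted p = 0.0301) and 1.62 after subtraction. Skeletal muscle genes had medians of -0.65, 0.00 and 0.57 over 32 members, and the thin muscle layer that a skin biopsy takes along was not measured. H2-T22, a nonclassical class I histocompatibility gene, was the 1 of 20 genes of that pathway called in the deposited values, beside 0.998% of all genes (1.22, adjusted p = 0.000326), where the list's median was 0.23.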
